A study of Rattus norvegicus with 4 samples.

Results

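The cytosolic ribosomal protein genes were followed in the rat left ventricle on 4 Affymetrix rat arrays, 1 array per group. Genes were chosen by name: a probe set, which is a group of short oligonucleotides for 1 transcript, had to list a single gene symbol that starts with Rpl or Rps and a digit, or with Rplp, or that is Rpsa. The Rps6k kinases were left out. This gave 64 probe sets of 44 genes, out of 4736 genes with a single symbol. Where a gene had several probe sets, the brightest by the mean of the 4 arrays stood for it. Of the 44 genes, 26 encode proteins of the large subunit and 11 encode proteins of the small subunit. Another 5 carry symbols of paralogs or ribosomal-like genes (Rpl3l, Rpl19l4, Rpl36al1, Rplp1l3 and Rps27l), and 2 carry pseudogene symbols (Rps2-ps1 and Rps4x-ps9).

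The first array held total RNA of SD (Sprague Dawley) controls, with no transgene named. The second held RNA of dTGR, double transgenic rats that carry the human genes for renin and angiotensinogen and develop high blood pressure, an enlarged heart and protein in the urine. The third held RNA of dTGR given losartan, a drug that blocks angiotensin II at its type 1 receptor. The fourth is labelled only as terminal heart failure. Its title names no genotype and no treatment, and the description it shares with the other samples speaks of the transgenic rats. The sources used here do not give the promoters of the transgenes, ages, doses or how many animals each array stands for. With 1 array per group there is no replicate spread, no test and no p-value. All differences below are sizes between single arrays, and intensities are compared between arrays within a probe set, never between genes.

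The cytosolic ribosome translates messenger RNA into protein. Its small subunit reads the message, and its large subunit joins the amino acids. Each subunit is built from ribosomal RNA and many ribosomal proteins, which are made in the cytoplasm, carried to the nucleolus and assembled there on the RNA. Growing heart muscle makes more ribosomes, and ribosomal protein messages are known for a stretch of C and T bases at their start (a 5′ terminal oligopyrimidine tract), through which the mTOR pathway sets how well they are translated.

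The starts of the transcripts are shown because that tract is the sequence feature best known for these genes. Matched by gene, RefSeq (GRCr8) gave a promoter sequence for 37 of the 44 genes. Each line is 30 bases, 5′ to 3′ on the gene's strand, with the annotated transcript start at base 16. Capitals mark the longest run of C or T. In Rpl35, Rplp0, Rpl35a, Rps24 and Rpl4 the run covers the start, and in Rpl13a it ends just before it. Rpl3 and its muscle paralog Rpl3l are shown because they went opposite ways in the values.
Rpl35, chr3:43165907-43165936, minus strand: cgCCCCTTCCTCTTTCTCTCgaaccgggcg
Rplp0, chr12:46718376-46718405, minus strand: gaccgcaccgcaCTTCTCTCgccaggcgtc
Rpl35a, chr11:81235007-81235036, minus strand: gcgggtcttgCCTTCCTCTTTCCgccatct
Rps24, chr16:96502-96531, plus strand: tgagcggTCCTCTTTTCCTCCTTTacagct
Rpl13a, chr1:104748899-104748928, minus strand: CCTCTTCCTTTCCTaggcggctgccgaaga
Rpl4, chr8:73566462-73566491, plus strand: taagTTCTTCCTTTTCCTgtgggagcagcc
Rpl3, chr7:113507976-113508005, minus strand: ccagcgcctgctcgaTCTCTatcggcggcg
Rpl3l, chr10:14258431-14258460, plus strand: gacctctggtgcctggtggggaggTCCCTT

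A run of 8 or more C or T bases within 15 bases of the annotated start was present in 21 of the 37 genes (56.76%), against 11.38% of all 27457 genes in the RefSeq table. A C exactly at the start followed by 4 bases that are C or T was present in 11 of the 37 (29.73%), against 2.63% of all. Rplp0, Rpl35 and Rpl35a met this stricter form. Rpl3l has no long run in its window, and the longest run of Rpl3 is 5 bases. Over the whole 300 bases, from 250 before to 50 after the start and on either strand, CCGGAAG was found in 9 of the 37 (24.32%, against 9.218% of all), AAGATGGCG in 3 (8.108%, against 1.934%) and TATAAA in 5 (13.51%, against 14.26%). These are matches of letters near annotated starts, which can lie some bases away from the starts used in the heart.

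The deposited intensities had been scaled before deposit, with trimmed means of 200.2 to 200.3 on the 4 arrays. By the instrument records, SD control and dTGR shared a chip lot, as did losartan and terminal heart failure. Only the dTGR array had a different fluidics protocol, and only the terminal array a different run day. Run day therefore cannot be told apart from group in any comparison with the terminal array, nor fluidics protocol in any comparison with dTGR. Chip lot cannot be told apart from group when losartan or terminal heart failure is compared with SD control or dTGR. The ratio of 3′ to 5′ signal for Gapdh was 1.34, 1.73, 2.17 and 1.28 on the SD control, dTGR, losartan and terminal arrays. Of 12 ventricular cardiomyocyte markers on the array, 11 were above the floor of 26 intensity units used here, among them Myl2, Myl3, Tnnt2 and Actc1. The titin gene, Ttn, was under the floor on every array. Their summed intensity was 124596, 236596, 161211 and 115316 in the same order. In whole tissue, fewer cells of a type and less RNA per cell cannot be told apart.

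Probe sets for ribosomal RNA itself stood apart on the terminal array. The array holds 6 probe sets whose symbols include a ribosomal RNA, and all 6 were highest in terminal heart failure. One of them, listed for Rn28s and Rn45s, which are the 28S RNA and its precursor, read 22.1 in SD control, 72.2 in dTGR, 66.2 with losartan and 4723 in terminal heart failure. The part of this signal in the results on ribosomal protein messages was not tested.

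Most probe sets chosen for ribosomal protein genes read well above the floor in the left ventricle. Of the 44 genes, 39 were above the floor on all 4 arrays, a count not made over all genes. A mean intensity over 500 was reached by 37 of the 44, beside 585 of all 4736 genes. Rplp1l3, a gene with a symbol like the stalk protein gene Rplp1, was above the floor on none. The small-subunit gene Rps29 read 10308, 12402, 12272 and 11174 on the SD control, dTGR, losartan and terminal arrays. Rplp0, which forms the base of the stalk where elongation factors bind, read 5711, 6407, 4822 and 6915. Together the 44 genes made up 5.553%, 5.002%, 5.519% and 6.88% of the intensity summed over all genes. The terminal array thus had the highest share and the dTGR array the lowest. The summed intensity of the 44 genes itself was 94340, 104214, 102226 and 113482, lowest in SD control and not in dTGR.

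**Figure D1:**
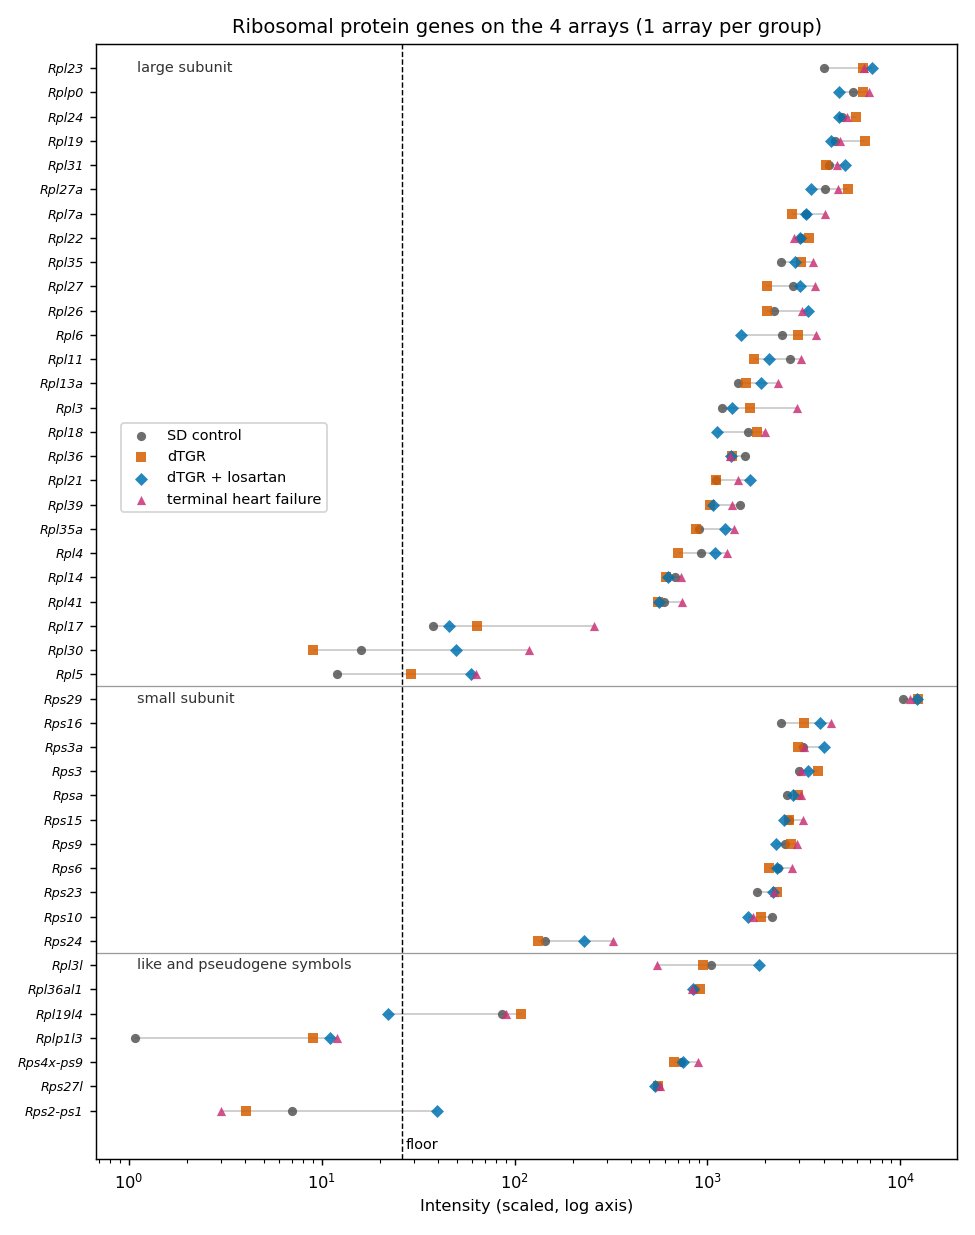
Scaled intensity (log axis) of the 44 ribosomal protein genes on each of the 4 arrays, 1 point per array, grouped by subunit, with the floor of 26 as a dashed line. Most genes lie over 500 on every array, and Rpl17, Rpl30, Rpl5, Rps24, Rpl19l4, Rplp1l3 and Rps2-ps1 lie lower.

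Most of the genes moved little between arrays. For the 37 genes without paralog or pseudogene symbols, the highest of the 4 arrays was 1.47-fold the lowest at the median. The range went from 1.18-fold for Rpsa, a small-subunit protein also known as the laminin receptor precursor, to 6.83-fold for Rpl17, a protein near the exit tunnel of the large subunit. Of these genes 21 stayed under 1.5-fold and 6 reached 2-fold or more. The same range was not computed over all genes, so these counts do not set ribosomal protein genes apart from other genes. Rpsa read 2592, 2934, 2786 and 3059. The p53-responsive paralog Rps27l was as even, with 555, 552, 533 and 565. For scale, different probe sets of the same gene, over 791 genes of the whole array, differed by an SD of 0.51 on the log2 scale in terminal heart failure against SD control.

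The main comparison set the failing ventricle against the SD control ventricle. Ribosomal protein genes were higher in terminal heart failure by a modest amount, while the typical gene of the array was slightly lower. Of 42 genes that passed the floor on either array, 36 were higher by any amount (85.71%), against 39.9% of all genes. Their median log2 difference was 0.26, and the median over all 3371 genes tested was -0.14. The median was 0.35 for the large subunit, with 23 of 26 genes higher, and 0.24 for the small subunit, with 10 of 11 higher. Among 132 other genes with a mean intensity in the interquartile range of the ribosomal protein genes, 1327 to 3307, the median was -0.25.

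Past 2-fold, 5 of the 42 genes were higher and 0 were lower. Over all genes 6.38% were 2-fold higher and 8.4% were 2-fold lower. At 1.5-fold the counts were 10 higher and 1 lower, beside 13.7% and 22% of all genes. The 5 genes past 2-fold were Rpl17, Rpl30, Rpl5, Rps24 and Rpl3. Of all genes with a mean over 500, 5.641% were 2-fold higher and 5.47% lower. Of the 37 ribosomal protein genes among them, only Rpl3 passed 2-fold, and the median of these 37 was 0.24. The 4 others had a mean at or under 500, and Rpl30 and Rpl5 passed the floor in this comparison only on the terminal array.

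**Figure D2:**
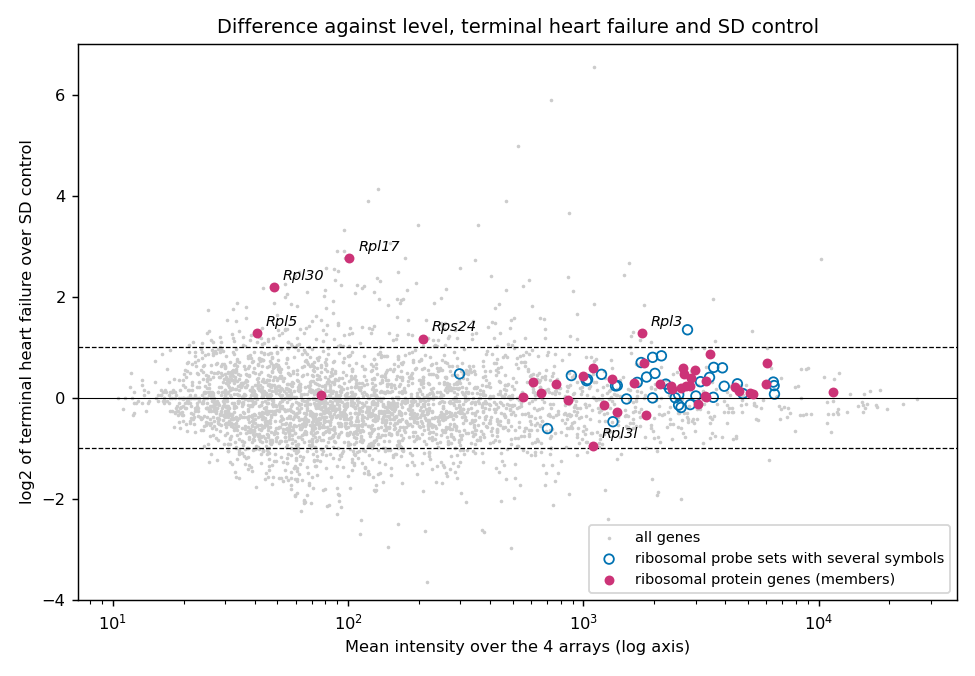
The log2 difference between the terminal heart failure and SD control arrays (vertical) against mean intensity over the 4 arrays (horizontal, log axis), for all genes tested (grey), the 42 ribosomal protein genes tested (filled) and the 37 ribosomal probe sets with several symbols that passed the floor on either array (open). Dashed lines mark 2-fold. The bright ribosomal protein genes sit just above 0, Rpl17, Rpl30, Rpl5 and Rps24 lie past 2-fold at low intensity, and Rpl3l lies almost 2-fold lower.

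The dim genes past 2-fold were followed in every array. Rpl17 read 37.6 in SD control, 63.8 in dTGR, 45.6 with losartan and 257 in terminal heart failure, which was 6.83-fold SD control. Rpl30, a large-subunit protein, read 16.1, 9.01, 49.4 and 119, and SD control and dTGR were under the floor. Terminal heart failure was at least 4.58-fold higher than SD control. Rpl5, which with Rpl11 and 5S RNA forms the particle that can bind Mdm2, read 12.02, 29.0, 59.5 and 63.2, at least 2.43-fold higher. Rps24, needed for processing the precursor of the small subunit's RNA, read 143, 133, 230 and 323, or 2.25-fold. In all 4 genes the terminal array was the highest, and in Rpl5 the losartan array lay almost as high.

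Brighter probe sets exist for these same 4 genes, but they list several symbols (the gene with its pseudogenes or copies) and so fell outside the choice by name. They gave smaller differences. For Rpl17, 2 such probe sets differed by 0.06 and -0.19 (log2, terminal heart failure minus SD control). The one for Rpl30 differed by -0.47, from 1663 to 1200, which is the other direction. Those for Rpl5 and Rps24 differed by 0.23 and 0.60. In all 4 genes the dim probe set passed 2-fold and the bright ones did not, and whether the dim ones read the same transcripts was not tested.

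Dim and bright probe sets also differed within Rpl21. This large-subunit gene read 1105, 1113, 1653 and 1437 by its brightest probe set, a log2 difference of 0.38. Its dim pair read 55.9 and 41.7 in SD control and 387 and 237 in terminal heart failure, log2 differences of 2.79 and 2.50. Probe sets of Rps15, whose tail reaches into the decoding centre, were all over 500 at the mean and also disagreed, with differences of 0.24 for the brightest and 1.29 and 0.01 for the others.

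Rpl3 and Rpl3l went opposite ways. Rpl3 lies next to the catalytic centre of the large subunit, and Rpl3l is its paralog of heart and skeletal muscle, which can take its place in the ribosome. Rpl3 read 1188 in SD control, 1654 in dTGR, 1344 with losartan and 2899 in terminal heart failure, 2.44-fold SD control. Its other probe set read 994, 698, 990 and 1769, a log2 difference of 0.83. Both probe sets were highest in terminal heart failure, but they disagreed on dTGR against SD control, with log2 differences of 0.48 and -0.51. Both carry a suffix that marks probes shared with other sequences or chosen under relaxed rules.

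Rpl3l read 1046, 949, 1843 and 545 on the same arrays, a log2 difference of -0.94 between terminal heart failure and SD control. Its other probe set read 732, 677, 615 and 364, a difference of -1.01. Rpl3l was lowest in terminal heart failure by both probe sets. The high value with losartan was seen by 1 probe set and not by the other. Of skeletal muscle markers, 4 of 8 on the array were above the floor on at least 1 array, and their summed intensity over the 8 was 202, 160, 182 and 297, highest on the terminal array.

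**Figure D3:**
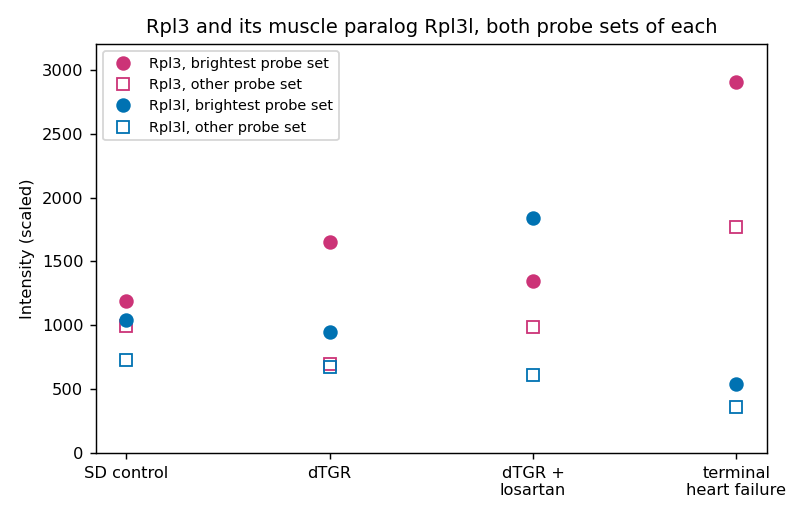
Scaled intensity of Rpl3 and Rpl3l on the 4 arrays, with the brightest probe set filled and the other open, 1 array per point. Both Rpl3 probe sets are highest in terminal heart failure (2899 and 1769) and both Rpl3l probe sets are lowest there (545 and 364).

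Rpl13a, Rpl23, Rpl35a and Rpl6 of the large subunit were between 1.5-fold and 2-fold higher in terminal heart failure than in SD control. Rpl13a, also part of a complex that silences inflammatory messages, read 1438, 1584, 1906 and 2319 on the SD control, dTGR, losartan and terminal arrays. Its other probe set went from 570 to 1509. Rpl23, at the interface of the subunits, read 3999, 6407, 7147 and 6489, so SD control was low and the other 3 arrays were close together. Rpl35a read 905, 876, 1233 and 1371, with SD control and dTGR low. Rpl6 read 2436, 2956, 1493 and 3671, with a low value on the losartan array. Its other probe set read 1709, 1902, 2046 and 2599 and did not have that low value. Rpl35, near the exit tunnel, stayed under 1.5-fold, with 2419, 3064, 2841 and 3548 and a difference of 0.55.

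Rpl26, known to bind the p53 message, read 2217, 2043, 3320 and 3088. Rpl11 read 2683, 1736, 2083 and 3039, lowest in dTGR, but its other probe set was higher in dTGR than in SD control by 0.57. The stalk gene Rplp0 differed by 0.28 between terminal heart failure and SD control. Of the large subunit, 3 genes were lower in terminal heart failure than in SD control. Rpl36 read 1573, 1337, 1329 and 1303. Rpl39, a very small protein in the exit tunnel, read 1474, 1027, 1063 and 1337. Rpl22 read 3062, 3359, 3033 and 2813. These differences of at most 0.27 on the log2 scale were smaller than the spread between probe sets of a gene.

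Among small-subunit genes, Rps16 read 2395, 3154, 3833 and 4387 and was 1.83-fold SD control in terminal heart failure. Rps6, the target of the S6 kinases, read 2323, 2074, 2307 and 2743, a difference of 0.24. Rps3, which lines the channel where the message enters, differed by 0.04 and stayed between 2982 and 3757 on the 4 arrays. Rps10 was the only small-subunit gene lower in terminal heart failure, with 2170 in SD control and 1721, while dTGR and losartan lay at 1904 and 1622.

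Probe sets of the same gene could be set against each other in 19 pairs of 16 genes, each of the brightest with another of the gene. All 19 pairs had the same sign for the difference of terminal heart failure from SD control. The counts were 15 of 19 in terminal heart failure against dTGR and 12 of 19 in terminal heart failure against losartan. They were 12 and 9 of 19 for dTGR and losartan against SD control, and 14 of 19 for losartan against dTGR. Pairs of 1 gene can share probes, so they are not independent. Of the 54 ribosomal probe sets with 1 symbol and a mean over 500, 47 were higher in terminal heart failure than in SD control. Many pairs would therefore share a sign there without following each other gene by gene. The same count was not made over all genes.

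The same terminal array was also set against the dTGR and losartan arrays. These comparisons share it with the one above, so each is given by its own values. Against dTGR, 30 of 42 genes were higher by any amount, beside 40% of all genes. The median was 0.23, beside -0.18 over all genes. Past 2-fold 4 genes were higher and 0 lower, where 7.69% and 11.8% of all genes were. At 1.5-fold 10 were higher and 1 lower, beside 16.1% and 27.4%. The 4 past 2-fold were Rpl17, Rpl30, Rpl5 and Rps24, all dim.

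Against losartan, 31 of 43 genes were higher, beside 41.8% of all genes, with medians of 0.19 and -0.12. Past 2-fold 5 were higher and 1 was lower, where 7.44% and 7.35% of all genes were. At 1.5-fold 6 were higher and 2 lower, beside 16.1% and 22.4%. The 5 past 2-fold were Rpl17, Rpl30, Rpl3, Rpl6 and Rpl19l4, and the lower one was Rpl3l, which differed by -1.76 by its brightest probe set and by -0.76 by the other. Rpl6 differed by 1.30 by its brightest probe set and by 0.35 by the other.

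On the dTGR and losartan arrays the median of these genes lay close to SD control. In dTGR against SD control, 0 of 41 genes passed 2-fold in either direction, where 7.69% of all genes were higher and 5.87% lower. Of all genes with a mean over 500, 3.59% were 2-fold higher and 1.368% lower. Among the 132 other genes of like intensity, the shares were 1.515% and 0.7576%. By any amount, 22 of the 41 were higher, beside 52.2% of all genes. The median was 0.09, beside 0.03 over all genes. Its sign turned to -0.19 with arrays scaled to the same median and to -0.03 with cyclic loess, which aligns the arrays over the range of intensity. At 1.5-fold 2 genes were higher and 1 lower, beside 18.5% and 16% of all genes. The highest differences were 0.76 for Rpl17, 0.68 for Rpl23 and 0.52 for Rpl19. The lowest were -0.63 for Rpl11, -0.52 for Rpl39 and -0.45 for Rpl27.

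In losartan against SD control, 24 of 43 genes were higher by any amount, beside 49.8% of all genes, and the median was 0.10, beside -0.0009 over all genes. Past 2-fold 1 gene was higher and 1 lower, where 2.24% and 4.86% of all genes were. At 1.5-fold 7 were higher and 2 lower, beside 9.63% and 13.1%, so a larger share of these genes than of all genes was higher. Of these 7 higher genes, 3 had a mean over 500. The gene past 2-fold higher was Rpl5, at least 2.29-fold. The one past 2-fold lower was Rpl19l4, which read 86.3 in SD control and was under the floor with losartan at 22.1. In losartan against dTGR, which asked what the blocker of the receptor did in the transgenic rats, the same 2 genes passed 2-fold, where 5.9% and 9.5% of all genes were. There 22 of 43 genes were higher, beside 47% of all genes, with medians of 0.01 and -0.05. At 1.5-fold 7 were higher and 4 lower, beside 16.8% and 22.3%. The median turned to -0.05 with quantile normalization and to -0.008 under 3 other settings. Neither of these 2 genes is bright, and the bright genes gave 0 of 37 past 2-fold in either comparison. Of all genes with a mean over 500, 1.368% were 2-fold higher and 1.88% lower in losartan against SD control. In losartan against dTGR these shares were 3.419% and 3.761%.

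The order of the arrays was counted for each gene that was above the floor on at least 1 array. Terminal heart failure was the highest array for 24 of 43 ribosomal protein genes (55.81%), beside 20% of all genes. SD control was highest for 3, dTGR for 9 and losartan for 7, beside 22.6%, 33.3% and 24.1% of all genes. Terminal heart failure was the lowest array for 5, among them Rpl3l, Rpl22 and Rpl36, beside 35.6% of all genes. SD control was lowest for 12, dTGR for 15 and losartan for 11, beside 19%, 23.5% and 21.9%. Under 8 other settings of scaling, floor and probe sets, the share of ribosomal protein genes highest in terminal heart failure ran from 51.6% to 72.1%, and that of all genes from 19.2% to 25.8%.

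**Figure D4:**
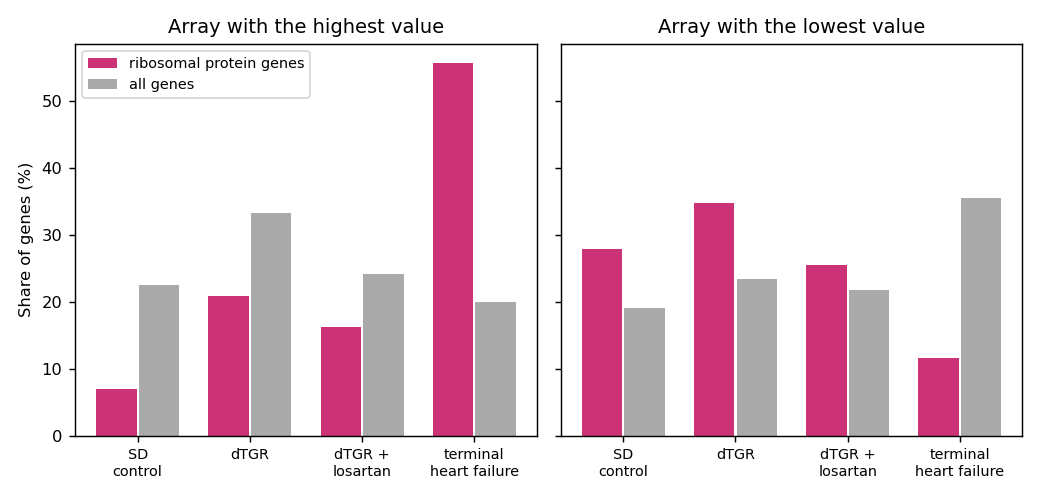
Share of genes (percent) whose highest value (left) or lowest value (right) was on each of the 4 arrays, for 43 ribosomal protein genes and for all 3806 genes above the floor on at least 1 array. Terminal heart failure holds the highest value of 55.81% of the ribosomal protein genes and of 20% of all genes.

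Another 38 ribosomal probe sets list several symbols, such as a gene with its pseudogenes, and stand for 30 genes, 25 of which are not among the 44. Terminal heart failure was the highest array for 22 of the 38, beside 20% of all genes above the floor on at least 1 array. The 38 include a probe set for Rps13 that was under the floor on every array. Against SD control, 30 of the 37 above the floor were higher in terminal heart failure, beside 39.9% of all genes, with a median of 0.27. Past 2-fold 1 was higher and 0 were lower, beside 6.38% and 8.4% of all genes. That one, for Rpl8 of the large subunit, read 1507, 2344, 3400 and 3834, while the other pair of probe sets for Rpl8 differed by 0.44 and 0.41. Rpl10a read 1702, 1707, 2149 and 3029. These probe sets cannot separate a gene from its near-identical copies.

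The genes were also split by the longest run of C or T within 15 bases of the annotated start, whether or not it covers the start. Rpl39 and Rps3a met the stricter form above but fell among the shorter runs, with 7 bases each. The split is therefore not one of genes with and without the tract. In terminal heart failure against SD control the median was 0.30 for 20 genes with a run of 8 or more. It was 0.24 for 13 genes with a shorter one. The order was the other way in the further comparisons of the terminal array. Against dTGR the medians were 0.23 for the longer and 0.38 for the shorter runs, and against losartan 0.18 and 0.25. Among the genes printed above, Rpl35 differed from SD control by 0.55, Rplp0 by 0.28 and Rpl3, with its short run, by 1.29. Rps24 differed by 1.17 by its dim probe set and by 0.60 by the bright one with several symbols. Of the longer runs 18 of 20 genes were higher, and of the shorter 11 of 13. Rpl22 and Rps10, with runs of 15 and 13 bases, were lower, by -0.12 and -0.33. The arrays measure how much message is present and not how well it is translated.

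Genes that work with the ribosome were counted by function. Of 12 ribosome biogenesis genes tested, 3 were 2-fold higher in terminal heart failure than in SD control and 0 were lower, beside 6.38% and 8.4% of all genes. Their median was 0.60, and 0.24 without probe sets whose suffix marks shared or relaxed probes. Nop58, a core protein of the particles that methylate ribosomal RNA, read 74.8, 104, 54.6 and 183. Ncl, nucleolin, read 281, 320, 420 and 642. Ddx21, a nucleolar helicase, read 34.2, 30.1, 43.9 and 74.3. All 3 were highest on the terminal array. Against losartan 5 of 13 were higher and 1 was lower, beside 7.44% and 7.35% of all genes, with a median of 0.76, and 0.40 without such probe sets.

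The proteins of the mitochondrial ribosome, a separate machine that translates the messages of mitochondrial DNA, had a median of -0.61 in terminal heart failure against SD control, beside -0.14 over all genes. Of 14 tested, 2 were 2-fold lower and 0 were higher, beside 8.4% and 6.38% of all genes. Mrpl44 read 133, 122, 192 and 57.0, Mrpl52 read 116, 61.7, 104 and 53.6, and Mrpl40 read 323, 303, 403 and 169. Each of the 3 was lowest in terminal heart failure. Against losartan 5 of 14 were lower, beside 7.35% of all genes, with a median of -0.83. The median was -0.09 in dTGR and 0.17 with losartan, both against SD control.

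Other parts of the translation machinery were also compared in terminal heart failure against SD control, and the initiation and elongation genes moved less as groups. Of 17 initiation factor genes, 1 was 2-fold higher, beside 6.38% of all genes, with a median of 0.01. That gene was Eif4ebp1, the inhibitor of the cap-binding protein, which read 439, 450, 357 and 1003. Of 5 elongation genes none passed 2-fold, beside 6.38% of all genes higher and 8.4% lower, with a median of 0.13. Eef1a2, the form of elongation factor 1A in muscle and nerve, read 1494, 1181, 643 and 821. Of 5 aminoacyl-tRNA synthetase genes and 7 ribosome-associated genes none passed 2-fold, beside the same shares of all genes. Their medians were 0.24 and 0.21, near the 0.26 of the ribosomal protein genes and above the -0.14 of all genes.

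The S6 kinase and mTOR list had 3 genes higher and 1 lower of 11, beside 6.38% and 8.4% of all genes, with a median of -0.15. Myc, a transcription factor that drives ribosome production, read 35.4, 56.9, 47.4 and 207 on the SD control, dTGR, losartan and terminal arrays. Mlst8, a subunit of both mTOR complexes, read 110, 36.8, 85 and 27.1. Myc was highest and Mlst8 lowest on the terminal array. Eif4ebp1 belongs to this list too and was also 2-fold higher. The remaining higher gene, Rictor, read 34.8, 75.3, 53.1 and 79.1, almost as high in dTGR as in terminal heart failure.

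**Figure D5:**
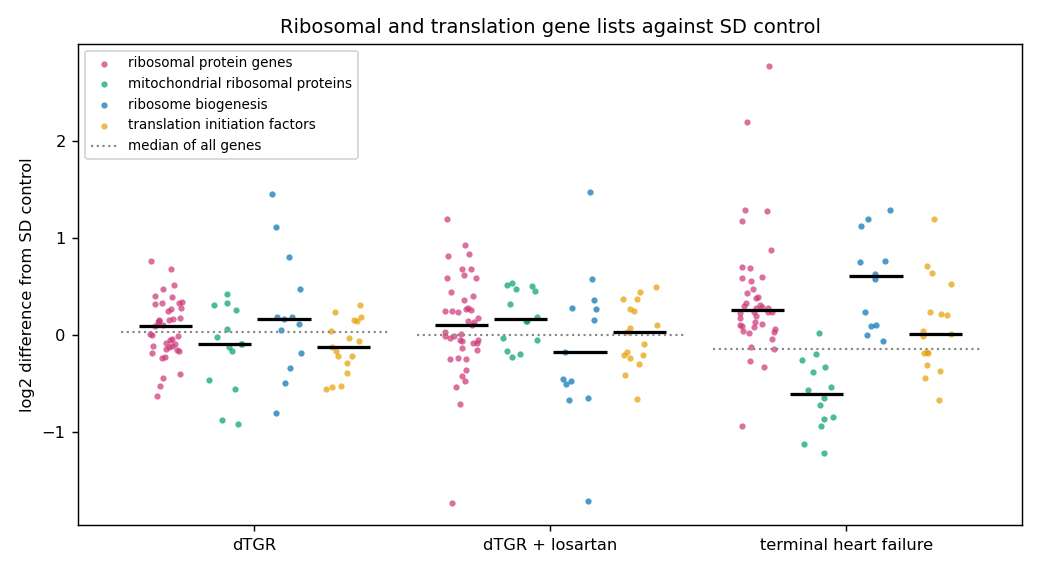
log2 difference from the SD control array for the dTGR, losartan and terminal arrays, 1 point per gene above the floor, for the ribosomal protein genes, mitochondrial ribosomal proteins, ribosome biogenesis genes and initiation factors. Black bars are list medians and dotted lines the median of all genes; in terminal heart failure the medians are 0.26, -0.61, 0.60 and 0.01, beside -0.14.

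Lists of markers of other cells were also compared between terminal heart failure and SD control. Of 7 macrophage markers on the array 6 were above the floor, and Csf1r was not on any array. Against SD control 4 were 2-fold higher and 1 was lower, beside 6.38% and 8.4% of all genes, and their summed intensity was 2956, 3494, 3483 and 5011 on the SD control, dTGR, losartan and terminal arrays. Lgals3 read 125, 214, 143 and 556, while Cd74 read 1532, 1380, 1986 and 666. Of 8 lymphocyte markers tested 0 were 2-fold higher and 1 was lower, beside the same shares of all genes. The lower one, Lck, read 217, 87.6, 148 and 89.7. The 9 lymphocyte markers on the array summed to 534, 409, 320 and 290, with several values under the floor. Of 6 proliferation markers 0 were 2-fold higher and 2 were lower in terminal heart failure than in SD control, beside 6.38% and 8.4% of all genes. Of 9 fibroblast markers tested 1 was 2-fold higher and 3 were lower, beside the same shares. Of 4 endothelial markers tested 0 were 2-fold higher and 1 was lower, beside the same shares. Of 5 smooth muscle and 4 red blood cell markers none passed 2-fold, beside the same shares. The part of any of these cells in the higher ribosomal protein signal was not tested.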

How the data were processed

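Total RNA of the left ventricle was hybridised to 4 arrays, 1 per group. The deposited values are intensities per probe set on a linear scale. Per the file headers they are from 1-colour Affymetrix arrays, and the software that made them is not given in the sources used here. Low values appear to have passed through a spreadsheet: 13625 of 15281 values from 1 to under 32 have the form of a day and month, which moves a value by less than 1 unit. Probe sets were named through the platform annotation: of 8799, 7006 had 1 symbol, 308 several and 1426 none, and 59 were controls. Each array was multiplied to reach the average trimmed mean of all 4 (2% left out at each end). Values under the 40th percentile of all values, 26, were raised to it as a floor before log2 was computed. A gene was compared when it passed the floor on either array, and called at 2-fold. No test was run, since each group has 1 array, and the number of arrays limits the precision. Of the 44 chosen probe sets, 21 have a suffix that marks shared or relaxed probes.

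Members and lists were chosen with earlier results of these data known. Genes named were those past 2-fold, the 6 highest and 6 lowest in each comparison, genes of known roles, and up to 3 per list with the largest difference. Rps29, Rps27l, Rpl35, Rpl8, Lgals3, Cd74 and the further probe sets described were named after their values were seen. Alternatives were scaling to the same median, quantile normalization and cyclic loess (limma 3.58.1 in R 4.3.3), other floors, the median over probe sets, no suffixed probe sets, no paralogs and 1.5-fold. Other steps used Python 3.11.15 and pandas 2.3.3, tested on simulated data.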

Additional observations from a re-analysis of the deposited data

Results flagged for a closer look

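Probe sets for ribosomal RNA are outside the measurement of ribosomal protein genes, and 6 of 6 gave a signal in terminal heart failure above that of the SD control array, where 5 were under the floor. The 4 that list only Rn28s and Rn45s read 1197, 4723, 1329 and 133 in terminal heart failure, and 49.3, 22.1, 15.03 and 3.07 in SD control. A probe set with 6 symbols, among them Rn18s, Rpl4 and B2m, read 4462 in terminal heart failure and 9.07 in SD control. Another with 10 symbols, among them Rn5-8s and Mrps18c, read 4054 and 2.02. On the dTGR and losartan arrays these 6 probe sets read between 14.0 and 274. Each group has 1 array, so the difference has no replicate check.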

How the results depend on the processing

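In terminal heart failure against SD control the median of the ribosomal protein genes stayed between 0.23 and 0.33 under 10 alternatives, and between 0.32 and 0.44 above the median of all genes. In dTGR against SD control (0.09) it reversed to -0.19 with the same median and to -0.026 with cyclic loess. In losartan against SD control (0.10) it was 0.019 with quantile normalization, 0.0059 with a floor at the 60th percentile and 0.0059 for members over 500 alone, an alternative added after seeing the data. In terminal heart failure against dTGR (0.23) it was 0.52 with the same median, 0.44 with cyclic loess and 0.14 without suffixed probe sets. In losartan against dTGR (0.01) it was 0.25 with the same median, and its sign turned to -0.05 with quantile normalization and to -0.008 with the floor at the 60th percentile, without suffixed probe sets and for members over 500 alone. In terminal heart failure against losartan (0.19) it was 0.33 with cyclic loess. Scaling to the same median moved the median of all genes too, from 0.03 to -0.19 in dTGR against SD control, from -0.18 to 0.09 in terminal heart failure against dTGR and from -0.05 to 0.17 in losartan against dTGR. With cyclic loess it moved from -0.14 to -0.03 in terminal heart failure against SD control and from -0.18 to -0.06 against dTGR. The cause of the other moves was not tested. The count past 2-fold in terminal heart failure against SD control ran from 1 (members over 500 alone) to 7, with 3 under the floor at the 60th percentile and 11 at 1.5-fold. Against dTGR it ran from 0 to 8, against losartan from 1 to 7, and in dTGR against SD control, losartan against SD control and losartan against dTGR from 0 to 2, 0 to 5 and 0 to 4. At 1.5-fold the last 3 were 3, 9 and 11, and that against dTGR was 11. Rpl30 missed 2-fold in all 3 comparisons of terminal heart failure under the floor at the 60th percentile (0.85), as did Rpl19l4 in its 3. Rpl5 was under that floor on every array and lost its calls in all 4 of its comparisons. Against losartan, Rpl3 (0.97) and Rpl6 (0.82) missed 2-fold with the median over probe sets, and Rpl3l (-0.76) without suffixed probe sets. In terminal heart failure against SD control the median of mitochondrial ribosomal proteins stayed between -0.61 and -0.46, and that of biogenesis genes between 0.24 and 0.75. No array could be left out with 1 per group. No paired analysis was possible because each group has 1 array and no test was run. Dim probe sets near the floor limit what can be read of Rpl30, Rpl5 and Rpl19l4.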
